A study of Homo sapiens with 6 samples.

Results

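Bone morphogenetic proteins (BMPs) are secreted ligands of the TGFβ superfamily. A BMP dimer brings together type I receptors such as BMPR1A and the type II receptor BMPR2, and the receptor complex phosphorylates SMAD1, SMAD5 and SMAD9, which enter the nucleus with SMAD4 and switch on early target genes, among them the ID genes and the feedback inhibitors SMAD6 and BAMBI. ID proteins have a helix-loop-helix but no DNA-binding region, and they hold E proteins away from DNA. In primed human embryonic stem cells (hESCs), added BMP is known to drive exit from pluripotency towards amnion- and trophoblast-like cells, and inhibition of BMP and activin signals is widely used for neural induction. The genes described here are 10 genes of this pathway, chosen by symbol: the ligands BMP2, BMP4 and BMP7, the receptors BMPR1A and BMPR2, the inhibitors BAMBI and SMAD6, and the target genes ID1, ID2 and ID3. All 10 symbols were found among 61155 in the count table, and all 10 passed the filter on low counts, as did 19521 genes in all.

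The study compared wild-type (WT) cells of H7, an established line of hESCs, with S6K1-/- H7 hESCs made by CRISPR/Cas9 against exons of RPS6KB1, the gene of the kinase S6K1, in 3 libraries per group. Both groups were undifferentiated cells grown without feeders on Matrigel in TeSR-E8 medium, according to the labels' protocols and the methods, although the label for time reads week 5 and that for genotype a knockdown. The knockout cells were expanded clonally and come from clone #1 alone, so that effects of the genotype and of the clone cannot be told apart. Whether the libraries of a group are separate cultures is not stated, so the p-values measure only the spread between these libraries, which may be technical.

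Library totals ran from 21896698 to 24473013 counts, and levels are given below as CPM, counts scaled to a common library size after TMM normalization. RPS6KB1, the targeted gene, was at 831, 791 and 777 counts in WT replicates 1, 2 and 3 and at 464, 464 and 438 in S6K1-/- replicates 1, 2 and 3. Its log2 fold change was -0.75 with a standard error of 0.057, in the direction the labels give. The 8 markers of undifferentiated hESCs were present in every library, with a summed level from 3821 to 3994 CPM in WT and from 3802 to 3897 CPM in S6K1-/- hESCs. Of the 10 markers of amnion and trophoblast, HAND1 was at 0 in every library, CDX2 was at no more than 2 counts, and the sum was from 24.1 to 25.9 CPM in WT and from 20.6 to 22.9 CPM in S6K1-/- hESCs. Of the 8 markers of undifferentiated cells, 1 was higher (ZFP42) and 2 were lower (SALL4 and TDGF1) at an edgeR adjusted p under 0.05, where 5.47% and 8.31% of all genes were higher and lower, and 1 of the 4 amnion and trophoblast markers tested, KRT7, was lower with an adjusted p of 0.00103. Of 5 neuroectoderm markers tested, 2 were higher and 1 was lower at 0.05. PAX6 was 69.4% higher (edgeR adjusted p = 2.69e-04), DCX was lower with a change of -31.2% (edgeR adjusted p = 4.91e-04), and SOX1, at under 1 CPM in every library, was 144% higher (edgeR adjusted p = 0.0174). The markers in this paragraph were named after their values were seen.

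GTCT is the core of an element that SMADs are known to bind. In the 200 bases before the RefSeq transcription start (GRCh38.p14), it was searched on both strands, where its reverse complement reads AGAC. The GC-rich element GGCGCC was searched with it. The genes searched were ID1, ID2, ID3, ID4, SMAD6 and BAMBI, and other BMP targets were not searched. The stretches below are 30 bases that hold the closest pair of GTCT matches, written 5′ to 3′ on the strand of the gene with the matches in capitals, and they are shown for the 4 BMP targets among the 10 genes that hold such a pair within 30 bases, since their levels are compared below. Each stretch lies on chromosome 20, 2, 1 or 15, at chr20:31605127-31605156 on the plus strand for ID1, chr2:8681944-8681973 on the plus strand for ID2, chr1:23559637-23559666 on the minus strand for ID3 and chr15:66702206-66702235 on the plus strand for SMAD6. The stretches of ID1, ID3 and SMAD6 lie before the annotated start of their gene in GENCODE 44, and that of ID2 lies in an exon of a longer ID2 transcript.
ID1: GTCTttccacactgcgagcaggcactAGAC
ID2: cgcccgctcGTCTtgatAGACgtgccacct
ID3: ctccgcgGTCTtcggcgtcAGACcagccgg
SMAD6: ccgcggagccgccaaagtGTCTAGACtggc

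The pair spans 30 bases in ID1, 12 in ID2 and 16 in ID3. In SMAD6 the 2 matches abut as the palindrome GTCTAGAC, and the stretch ends at the base before the start. GTCT itself is common, with at least 1 match in 69% of 35095 windows of this length, and 13.6% of the windows hold 2 matches within 30 bases. The palindrome occurs in 40 windows, or 0.114%. BAMBI had 3 matches of GTCT, the closest pair of which spans 52 bases, and 2 of GGCGCC, an element found in 14.2% of the windows. ID4, the remaining gene of the ID family and not one of the 10, had no match of GTCT or GGCGCC in its window. The windows of ID1, ID2, ID3 and SMAD6 had no match of GGCGCC. These are matches of letters, and binding was not measured.

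Across the 10 genes, ID2 rose in S6K1-/- hESCs and no other gene passed the study's threshold of an adjusted p under 0.001. ID2 was at 34.0% above its WT level (95% confidence interval 20.9% to 48.6%). The groups were compared gene by gene with the quasi-likelihood F test of edgeR over all 19521 genes, and p-values were adjusted over these by the Benjamini-Hochberg method. Of all genes tested, 1.42% were higher and 2.54% were lower at this threshold, or 3.96% in either direction, against 1 higher and 0 lower of the 10. At an adjusted p under 0.05, 2 of the 10 were higher, ID2 and BMP7, and 0 were lower, where 5.47% and 8.31% of all genes were higher and lower. At an unadjusted p under 0.05 the counts were again 2 higher and 0 lower, where 11.8% of all genes were higher and 14.5% were lower. DESeq2's Wald test gave 1 higher and 0 lower at an adjusted p under 0.001, where it called 325 higher and 458 lower of 23101 genes. The log2 fold change, taken as S6K1-/- against WT throughout, lay between -0.18 and 0.42, and its median was 0.06 over the 10 genes and -0.0024 over all genes tested. For 9 of the 10 genes it was within 0.2 of 0, as it was for 68.9% of all genes tested. For 2 of the 10 genes, both higher in S6K1-/- hESCs, no library of one group lay within the range of the other. Of all genes, 14.0% were higher in this way and 16.7% were lower, or 30.7% in either direction. In bulk RNA, fewer cells that express a gene and less of its RNA per cell cannot be told apart.

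**Figure D1:**
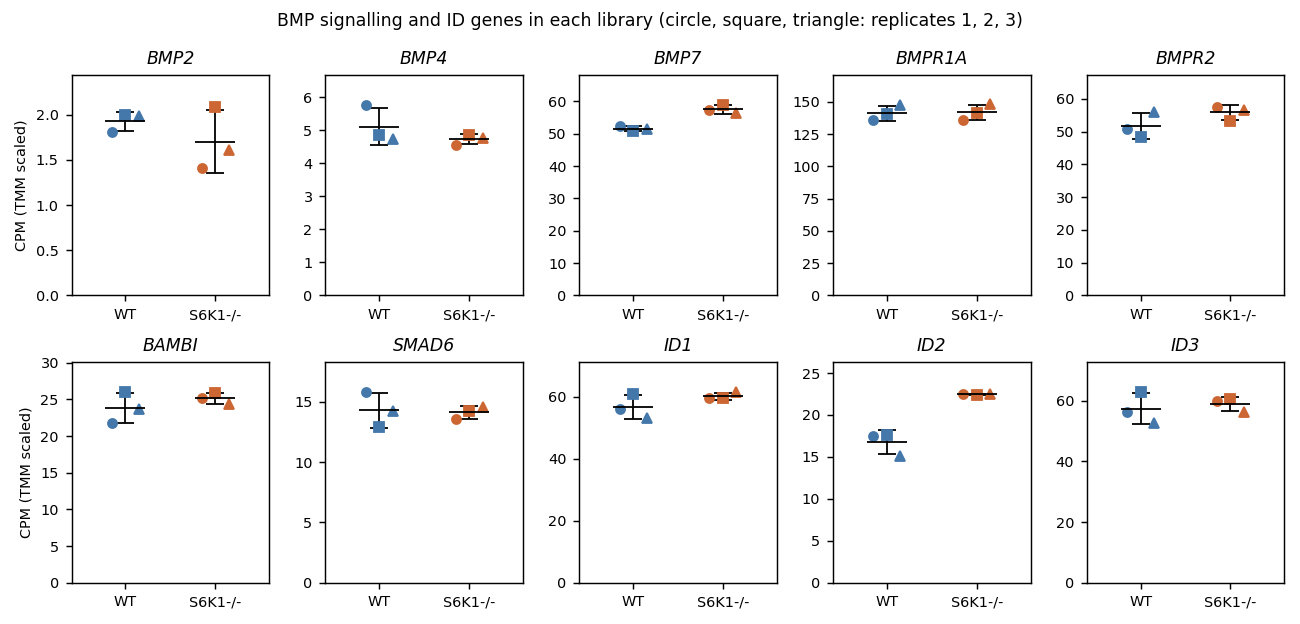
CPM after TMM scaling (vertical axes from 0) of the 10 genes in the 3 WT and 3 S6K1-/- libraries. Symbols are libraries, black lines the mean and SD (n = 3). The libraries of the groups are apart for ID2 and BMP7 and overlap for the other 8 genes.

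Of the 3 ligands, BMP7 alone had an adjusted p under 0.05. BMP7, a BMP made by many epithelia and encoded on chromosome 20 from 57168753 to 57266641 (GENCODE 44, GRCh38, as for all positions of genes), was at 52.5, 50.8 and 51.4 CPM in WT replicates 1, 2 and 3 and at 57.3, 59.0 and 56.3 CPM in S6K1-/- replicates 1, 2 and 3. Each S6K1-/- library was above each WT library, by 11.5% on average in the fit (95% confidence interval 4.60% to 18.9%). This log2 fold change of 0.16 (standard error 0.0433) had an edgeR adjusted p of 0.0243, under 0.05 but not under 0.001. With each library left out in turn it stayed between 0.14 and 0.18, with an adjusted p from 0.0315 to 0.0844, and the adjusted p was above 0.05 without WT replicate 2 (0.0546), WT replicate 3 (0.0628), S6K1-/- replicate 1 (0.0767) or S6K1-/- replicate 2 (0.0844) and with DESeq2's Wald test (0.0707).

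BMP4, the ligand most used to induce amnion- and trophoblast-like cells from hESCs, lies on chromosome 14 from 53949736 to 53958761 and was at 140, 119 and 110 counts in WT and at 107, 116 and 104 counts in S6K1-/- hESCs. Its highest library was WT replicate 1 at 5.75 CPM, and the other 5 lay between 4.56 and 4.85 CPM, so that the groups overlapped. Its log2 fold change was -0.11 (95% confidence interval -0.36 to 0.13, edgeR adjusted p = 0.591), and without WT replicate 1 it was -0.010. BMP2, the close relative of BMP4 on chromosome 20 from 6767686 to 6780246, had 44, 49 and 46 counts in WT and 33, 50 and 35 counts in S6K1-/- hESCs. S6K1-/- replicate 2 was the highest of all 6 libraries and the other S6K1-/- libraries were the lowest, with a log2 fold change of -0.18 (95% confidence interval -0.57 to 0.22, edgeR adjusted p = 0.604). It was -0.36 without S6K1-/- replicate 2 and -0.053 without S6K1-/- replicate 1. As a percentage, the confidence interval of BMP2 ran from -32.8% to 16.5%, and counting error alone gives BMP2 a coefficient of variation of 14.7% in WT and 15.9% in S6K1-/- hESCs.

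Neither receptor passed the threshold. BMPR1A, the type I receptor also known as ALK3 and encoded on chromosome 10 from 86756596 to 86932825, was at 136, 140 and 147 CPM in WT and at 136, 141 and 148 CPM in S6K1-/- hESCs. The libraries of the groups lay over the same range, and the 95% confidence interval of the change ran from -5.93% to 7.40% (edgeR adjusted p = 0.941). Its processed pseudogenes BMPR1AP1 and BMPR1AP2 had at most 11 counts in any library, against at least 3195 for BMPR1A. BMPR2, the type II receptor encoded on chromosome 2 from 202376327 to 202567751, was at 50.7, 48.3 and 56.0 CPM in WT and at 57.6, 53.3 and 56.6 CPM in S6K1-/- hESCs. WT replicate 3 lay among the S6K1-/- libraries and the other WT libraries lay below them, and the log2 fold change of 0.11 (standard error 0.0559) had an edgeR adjusted p of 0.216.

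The inhibitors among the 10 genes overlapped between the groups as well. BAMBI, a pseudoreceptor without a kinase that BMP itself induces, lies on chromosome 10 from 28677510 to 28682932 and was at 21.9, 26.0 and 23.7 CPM in WT and at 25.2, 25.9 and 24.4 CPM in S6K1-/- hESCs. All S6K1-/- libraries lay between the lowest and the highest WT library, with a log2 fold change of 0.08 (95% confidence interval -0.07 to 0.22, edgeR adjusted p = 0.522). SMAD6, the inhibitory SMAD that acts mainly on BMP receptors, lies on chromosome 15 from 66702236 to 66782849 and was at 15.8, 12.9 and 14.2 CPM in WT and at 13.5, 14.2 and 14.6 CPM in S6K1-/- hESCs. WT replicates 1 and 2 were its highest and its lowest library, and the 95% confidence interval of its change ran from -12.4% to 11.1% (edgeR adjusted p = 0.912).

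Of the ID genes, ID2 alone passed the threshold. ID1, on chromosome 20 from 31605283 to 31606515, was at 56.2, 60.8 and 53.3 CPM in WT and at 59.5, 59.5 and 61.6 CPM in S6K1-/- hESCs. ID3, on chromosome 1 from 23557926 to 23559501, was at 56.3, 62.7 and 52.7 CPM in WT and at 59.8, 60.6 and 56.1 CPM in S6K1-/- hESCs. For ID1, WT replicate 2 lay above 2 of the S6K1-/- libraries, and for ID3 it lay above all of them. The 95% confidence interval of the change ran from -1.66% to 14.2% for ID1 (edgeR adjusted p = 0.323) and from -5.76% to 12.2% for ID3 (edgeR adjusted p = 0.727).

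ID2, on chromosome 2 from 8678845 to 8684461, was at 426, 434 and 351 counts in WT and at 529, 537 and 489 counts in S6K1-/- hESCs. In CPM this was 17.5, 17.7 and 15.1 in WT and 22.5, 22.4 and 22.5 in S6K1-/- hESCs, and every S6K1-/- library lay above every WT library. The WT mean was 16.8 ± 1.43 CPM and the S6K1-/- mean 22.5 ± 0.0507 CPM (SD over 3 libraries), and the log2 fold change was 0.42 with a standard error of 0.0697 (edgeR adjusted p = 6.64e-04). The coefficient of variation of ID2 in the S6K1-/- libraries was 0.225%, under the 4.39% that counting error alone gives at this depth, so that this SD understates the error. Without WT replicate 2 the adjusted p was 6.50e-04, and it was above 0.001 in the other 5 fits that each left out 1 library, up to 0.00408 without S6K1-/- replicate 3, with a log2 fold change between 0.36 and 0.46 throughout. WT replicate 3 was the library with the least ID2, and without it the log2 fold change was 0.36 (edgeR adjusted p = 0.00350).

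ID2-AS1, a long noncoding RNA annotated on the other strand, shares 145 exonic bases with ID2, and although the library kit keeps the strand, the strand setting of the counting is not given in the sources used here. It was at 86, 58 and 67 counts in WT and at 81, 90 and 75 counts in S6K1-/- hESCs, with a log2 fold change of 0.28 (95% confidence interval -0.05 to 0.61, edgeR adjusted p = 0.271). Summed with ID2 as 1 feature, an alternative chosen after the data were seen, it gave a log2 fold change of 0.40 (edgeR adjusted p = 6.34e-04). BMP4 shares 506 exonic bases with an unnamed gene on the other strand and BMPR2 57 with one on its own strand, and reads of these could not be separated here.

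ID4 was at 99, 115 and 104 counts in WT and at 63, 78 and 74 counts in S6K1-/- hESCs. Every S6K1-/- library lay below every WT library, opposite to ID2, but its log2 fold change of -0.50 (95% confidence interval -0.79 to -0.22) had an edgeR adjusted p of 0.0192 and did not pass the threshold of 0.001. It was above 0.05 with DESeq2's Wald test (0.139) and in the fits without WT replicate 2 (0.0665), without WT replicate 3 (0.0635) and without S6K1-/- replicate 1 (0.0993). The ratio of ID2 to each other ID gene was taken within each library, a comparison chosen after the values were seen. On the log2 scale of CPM per kilobase, the ratio of ID2 to ID1 went from -2.61 ± 0.0702 in WT to -2.27 ± 0.0292 in S6K1-/- hESCs (SD, n = 3 each), that of ID2 to ID3 from -2.34 ± 0.0756 to -1.95 ± 0.0601, and that of ID2 to ID4 from 2.73 ± 0.175 to 3.67 ± 0.185. All 3 ratios were higher in each S6K1-/- library than in any WT library. Each gave p = 0.10 in a two-sided exact permutation test, the smallest that 3 against 3 libraries allow, and 0.10 after adjustment over the 3 ratios. This test gives that value for any ratio whose groups are apart, and it cannot reach 0.05 with 3 libraries per group.

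**Figure D2:**
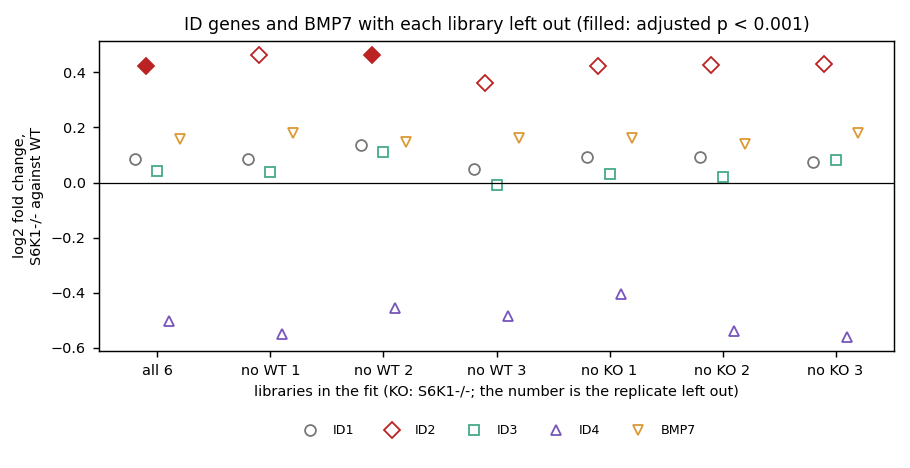
Log2 fold change of S6K1-/- against WT (vertical axis) for ID1, ID2, ID3, ID4 and BMP7 in the fit of all 6 libraries and in the fits that each leave out 1 library (horizontal axis). Filled symbols have an adjusted p under 0.001, which ID2 reaches with all libraries and without WT replicate 2, while its value stays between 0.36 and 0.46 and that of ID4 between -0.56 and -0.40.

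Levels of different genes were compared per kilobase of exon, over the exons of all GENCODE 44 transcripts of a gene together. In WT hESCs ID1 was the highest of the 10 genes at 46.0 ± 3.06 CPM per kilobase (SD, n = 3), followed by ID3 at 38.3 ± 3.41, BMPR1A at 14.0 ± 0.588, BAMBI at 11.1 ± 0.970, BMP7 at 9.51 ± 0.154 and ID2 at 7.57 ± 0.644. BMPR2 was at 4.13 ± 0.314 CPM per kilobase, SMAD6 at 1.67 ± 0.168, BMP4 at 1.65 ± 0.180 and BMP2 at 0.544 ± 0.0293. The order of the means was the same in S6K1-/- hESCs. Among neighbours in this order, SMAD6 and BMP4 alone overlapped in range over the WT libraries, and over the S6K1-/- libraries SMAD6 was at 1.58 to 1.70 and BMP4 at 1.47 to 1.56 CPM per kilobase. ID2 lay below BMP7 in each WT library, at 6.83 to 7.98 against 9.37 to 9.68 CPM per kilobase, and came to 10.1 to 10.2 against 10.4 to 10.9 in the S6K1-/- libraries. Of the summed level of ID1, ID2, ID3 and ID4 per kilobase, ID2 made up 8.14% ± 0.378 in WT and 10.2% ± 0.0784 in S6K1-/- hESCs (SD, n = 3 each). The SD in S6K1-/- hESCs understates the error here too. ID1 and ID3 together made up most of the rest.

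**Figure D3:**
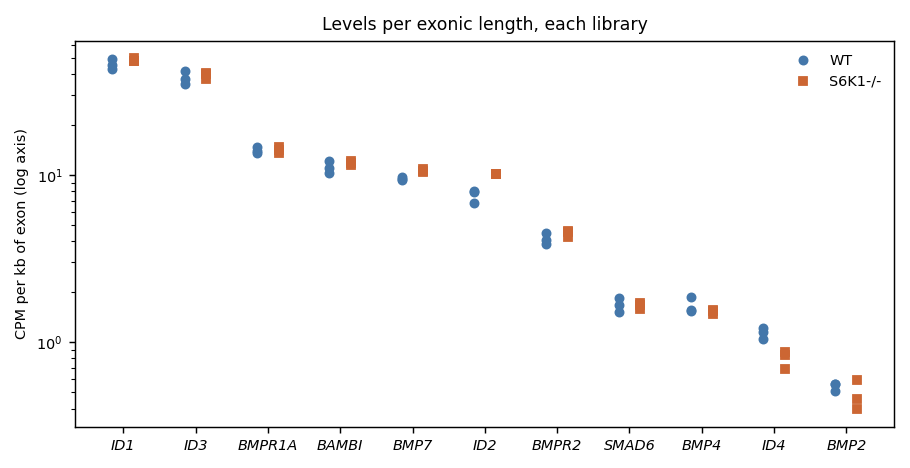
CPM per kilobase of exon (vertical log axis) in each WT and each S6K1-/- library for the 10 genes and ID4, ordered by the WT mean. ID1 and ID3 are the highest at over 35 CPM per kilobase, BMP2 is the lowest at under 0.6, and the libraries of the groups are apart for ID2, BMP7 and ID4.

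The spread between libraries of a group went in different directions among the ID genes. The coefficient of variation was 6.64%, 8.51% and 8.91% for ID1, ID2 and ID3 in WT and 1.99%, 0.225% and 4.12% in S6K1-/- hESCs. For ID4 it was 7.07% in WT and 12.2% in S6K1-/- hESCs. Over the 3 WT libraries ID1, ID2 and ID3 had the same order, with replicate 2 the highest and replicate 3 the lowest. Over the S6K1-/- libraries they did not, since replicate 3 was the highest for ID1 and the lowest for ID3. Counting error alone gives from 2.69% to 4.98% for ID1, ID2 and ID3 and from 9.71% to 11.8% for ID4. The difference in spread between the groups was not tested.

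Outside the 10 genes, the pathway was followed in 6 lists chosen by role, with earlier results of these data known. The lists hold 67 different genes in all, of which 52 passed the filter on low counts. Of these 52, 3 were higher (ID2, SMAD7 and GATA2) and 3 were lower (CER1, CHRDL1 and FSTL1) at an adjusted p under 0.001, against 1.42% and 2.54% of all genes tested. At an adjusted p under 0.05, 5 were higher and 6 were lower, against 5.47% and 8.31% of all genes. The groups did not overlap for 7 genes that were higher and 11 that were lower, against 14.0% and 16.7% of all genes. The median log2 fold change of the 52 was -0.04, with 30 below 0, as were 9879 of all 19521 genes. The 3 lower genes encode secreted proteins of the antagonist list, and the 3 higher ones are in the list of BMP targets, in which SMAD7 stands as a feedback inhibitor too.

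Among the secreted antagonists, which bind BMPs outside the cell, 10 of 15 genes were tested. Of these 10, 9 had a log2 fold change below 0, as did 9879 of all 19521 genes, and the median was -0.29. At an adjusted p under 0.001, 3 of the 10 were lower, against 2.54% of all genes. The groups did not overlap for 5, all lower in S6K1-/- hESCs, against 16.7% of all genes. CHRDL1, a chordin-like protein, was at 33.5, 31.7 and 31.6 CPM in WT and at 22.8, 21.1 and 23.5 CPM in S6K1-/- hESCs, and its log2 fold change was -0.52 with a standard error of 0.0609 (edgeR adjusted p = 2.56e-05). FSTL1, a follistatin-like glycoprotein that is also abundant in mesenchyme, was at 446, 437 and 450 CPM in WT and 330, 323 and 326 CPM in S6K1-/- hESCs, and it fell by 0.45 (standard error 0.0378, edgeR adjusted p = 8.72e-07). CER1, which binds Nodal as well as BMPs, was at 69, 49 and 57 counts in WT and at 9, 10 and 15 counts in S6K1-/- hESCs (edgeR adjusted p = 1.31e-05). CHRD, the antagonist chordin, passed 0.05 but not 0.001 and is named after its value was seen, with 63, 45 and 48 counts in WT and 29, 30 and 27 in S6K1-/- hESCs (edgeR adjusted p = 0.0109). CHRDL1, FSTL1 and CER1 passed 0.001 in each fit that left out 1 library. NOG, the antagonist noggin, had at most 12 counts in any library and was not tested.

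Markers of mesenchyme and mesendoderm are named here after their values were seen, and some were lower in S6K1-/- hESCs as well. The paper reports that, before differentiation, the knockout lowered gene sets of the collagen-containing matrix. Of 10 markers of mesenchyme, 6 were tested and 3 were lower at an adjusted p under 0.001 (COL1A1, COL1A2 and PDGFRB), against 2.54% of all genes, led by COL1A1 with 80.2 ± 1.73 CPM in WT and 23.2 ± 1.75 CPM in S6K1-/- hESCs (SD, n = 3 each). The summed level of the 10 was from 629 to 646 CPM in WT and from 542 to 563 CPM in S6K1-/- hESCs. THY1 made up most of this sum, at 488 CPM in WT and 480.0 CPM in S6K1-/- hESCs on average (edgeR adjusted p = 0.776). The mesenchymal markers DCN, LUM and COL3A1 had at most 2 counts in any library. Of 9 markers of mesendoderm, 5 were tested, 4 were below 0 with groups that did not overlap, against 16.7% of all genes, and the median log2 fold change was -0.64. FOXA2, at 6.09 ± 1.42 CPM in WT and 3.32 ± 0.0608 CPM in S6K1-/- hESCs (SD, n = 3 each), was lower at 0.05 (edgeR adjusted p = 0.00108). Its SD in S6K1-/- hESCs understates the error, since counting error alone is larger at this level. MIXL1 was higher at 0.05 (edgeR adjusted p = 0.0449), and EOMES, GSC and GATA4 did not pass 0.05. The summed level of the 9 was from 18.7 to 22.9 CPM in WT and from 18.4 to 19.4 CPM in S6K1-/- hESCs, and SOX17 had at most 1 count in any library. The part of these markers in the fall of FSTL1, CHRDL1 and CER1 was not tested.

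The lists of ligands, of receptors and of SMAD1, SMAD4, SMAD5 and SMAD9 held no gene past 0.001 by edgeR or by DESeq2's Wald test. At an unadjusted p under 0.05 in edgeR, 1 ligand was higher and 1 was lower, 1 receptor gene was higher and 3 were lower, and 0 of the 4 SMAD genes had such a p, where 11.8% of all genes were higher and 14.5% were lower. Of 14 ligand genes 8 were tested, and of those outside the 10 genes BMP6 had the smallest p among genes of at least 1 CPM, at 23.9, 29.3 and 27.2 CPM in WT and 23.6, 22.9 and 22.9 CPM in S6K1-/- hESCs (edgeR adjusted p = 0.0668). Every S6K1-/- library of BMP6 was lower than every WT library, the opposite order to BMP7. Its log2 fold change of -0.21 was -0.28 without WT replicate 1 (edgeR adjusted p = 0.0139) and -0.14 without WT replicate 2 (edgeR adjusted p = 0.245), and with no filter on low counts its adjusted p was 0.0261. Of 11 receptor and co-receptor genes 10 were tested, and RGMB, a membrane-bound BMP co-receptor, was at 37.1, 36.9 and 38.3 CPM in WT and 33.0, 33.8 and 33.7 CPM in S6K1-/- hESCs (edgeR adjusted p = 0.0464). Its adjusted p was above 0.05 in each fit that left out 1 library, up to 0.169 without S6K1-/- replicate 1, and was 0.240 with DESeq2's Wald test. SMAD1, SMAD5 and SMAD9, which carry the BMP signal, had log2 fold changes of -0.0013, 0.03 and -0.15, with 95% confidence intervals from -0.13 to 0.13, from -0.07 to 0.13 and from -0.47 to 0.17. The direction of SMAD1 turned under DESeq2's size factors, where it was 0.0053. SMAD4, the shared partner, was at 70.1 ± 2.83 CPM in WT and 74.3 ± 4.07 CPM in S6K1-/- hESCs (SD, n = 3 each), with an edgeR adjusted p of 0.294. These are levels of RNA, and phosphorylation of the SMADs was not measured by this assay.

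SMAD7, the inhibitory SMAD that acts on both BMP and TGFβ receptors, was at 49.1, 49.5 and 50.5 CPM in WT and at 59.5, 63.7 and 62.2 CPM in S6K1-/- hESCs. It rose by 24.4% (95% confidence interval 16.5% to 32.8%), whereas SMAD6 differed by -1.35% (95% confidence interval -12.4% to 11.1%). The adjusted p of SMAD7 was 1.60e-04, and it was above 0.001 without WT replicate 1 (0.00114), without S6K1-/- replicate 2 (0.00134) and without S6K1-/- replicate 3 (0.00115). Of the 10 inhibitors that act inside the cell, all 10 were tested and SMAD7 alone passed 0.001 in edgeR. DESeq2's Wald test called 2 higher, SMAD7 and SKIL, where it called 325 of 23101 genes higher. SKIL, a SMAD corepressor named after its value was seen, passed 0.05 but not 0.001 in edgeR (adjusted p = 0.00211). Of the 16 target genes, 13 were tested, 3 were higher and 0 were lower at 0.001, and 4 were higher and 2 were lower at an unadjusted p under 0.05. Of all genes, 1.42% were higher and 2.54% were lower at 0.001, and 11.8% and 14.5% at the unadjusted p. The median log2 fold change of the targets was 0.08. ID4 was the 1 target lower at 0.05. GATA2, a GATA factor of early haematopoiesis and trophoblast, was at 84, 76 and 75 counts in WT and at 140, 141 and 131 counts in S6K1-/- hESCs. Its log2 fold change was 0.87 with a standard error of 0.111 (edgeR adjusted p = 6.39e-05), and it passed 0.001 in each fit that left out 1 library. DLX5 was at 0 in every library, and CDX2 and MSX2 were not tested.

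**Figure D4:**
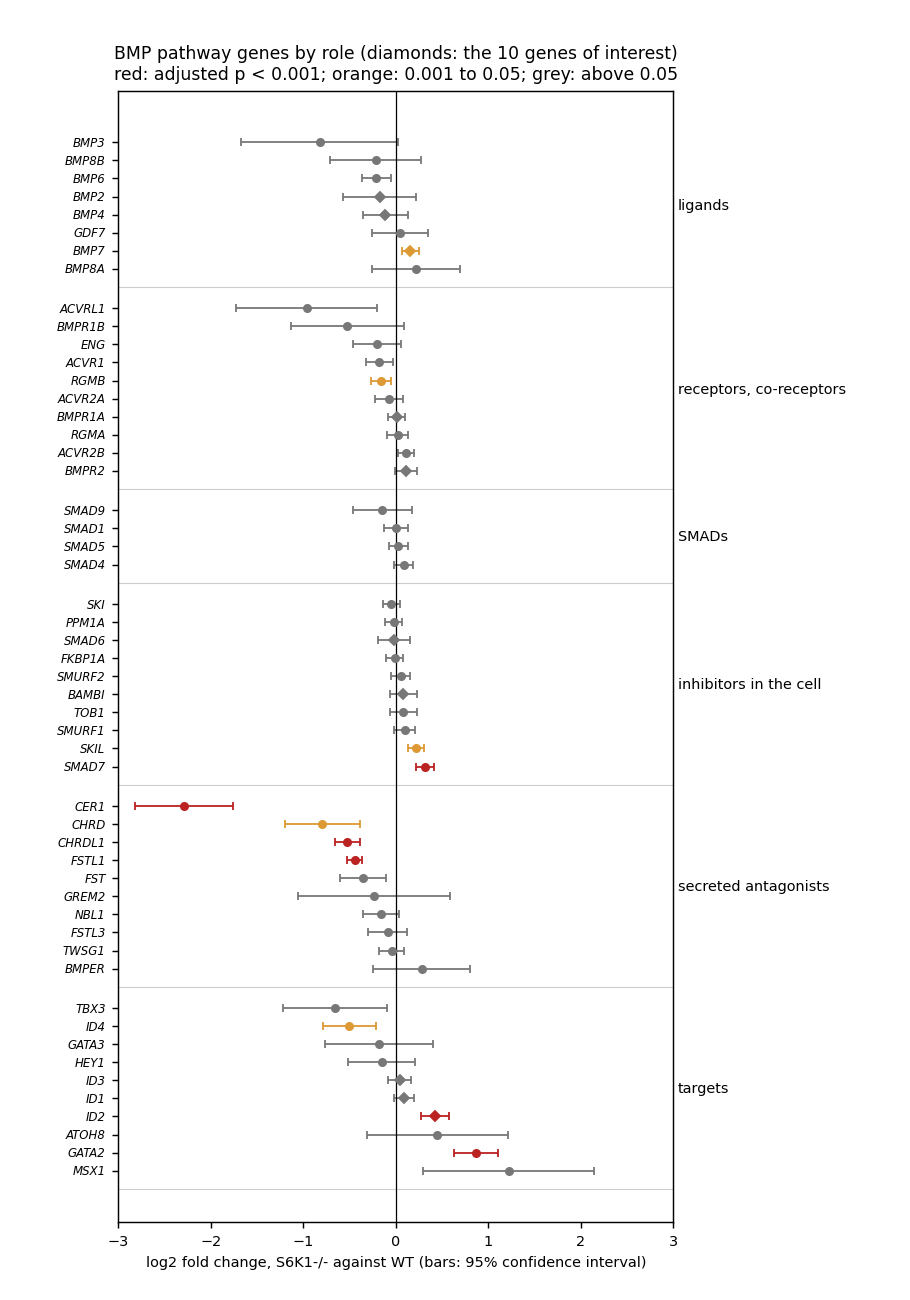
Log2 fold change of S6K1-/- against WT with 95% confidence interval (horizontal axis) for the 52 pathway genes tested, grouped by role, each gene drawn once. Diamonds mark the 10 genes described first, and colour gives the adjusted p. ID2, SMAD7 and GATA2 lie above 0 and CER1, CHRDL1 and FSTL1 below 0 at an adjusted p under 0.001.

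The E proteins that ID proteins bind did not pass the threshold. TCF3, TCF4 and TCF12 had log2 fold changes between 0.02 and 0.10, and TCF12, which had the smallest p of these, was at 109, 103 and 110 CPM in WT and at 118, 107 and 118 CPM in S6K1-/- hESCs (edgeR adjusted p = 0.205). ID1 lies in 20q11.21, a region often gained in cultured hESCs. Of 13 neighbours of ID1 in this region 11 were tested, and 2 were lower and 0 were higher at an adjusted p under 0.001, by edgeR and by DESeq2 alike, with 4 lower and 0 higher at an unadjusted p under 0.05. Of all genes, 2.54% were lower at 0.001 in edgeR and 14.5% at the unadjusted p, and DESeq2's Wald test called 458 of 23101 lower at 0.001. At an edgeR adjusted p under 0.05, 3 neighbours were lower and 0 were higher, against 8.31% and 5.47% of all genes. The groups did not overlap for 6 neighbours, all lower in S6K1-/- hESCs, against 16.7% of all genes. DNMT3B fell by 0.35 and BCL2L1 fell by 0.27 on the log2 scale, and BCL2L1 was above 0.001 in each of the 6 fits that left out 1 library, with an adjusted p from 0.00135 to 0.00741. ID1 itself differed by 0.08 (edgeR adjusted p = 0.323).

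The genes whose levels over the 6 libraries were most like those of ID2 were sought by Euclidean distance between log2 CPM values centred per gene, among the 10483 genes whose mean was 10 CPM or more. They were ARSE, an arylsulfatase, at a distance of 0.0584, CGREF1, a secreted EF-hand protein, at 0.0746, and ZNF429, a zinc finger gene, at 0.111. These distances describe the 6 libraries alone. ARSE was at 27.1, 27.7 and 24.2 CPM in WT and at 36.1, 35.0 and 34.4 CPM in S6K1-/- hESCs. Like ID2, all 3 genes were lowest in WT replicate 3, and each S6K1-/- library was above each WT library. CGREF1 did not pass the threshold (edgeR adjusted p = 0.00123).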

How the data were processed

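Per the methods and the labels, the authors trimmed paired reads of 150 bases from poly(A)-selected libraries with Trim Galore 0.6.5, aligned them to GRCh38 with Bowtie2 2.4.5 and counted them with featureCounts. They deposited raw counts per gene symbol in 6 libraries. Since Bowtie2 makes no spliced alignments, reads over exon junctions may be missing. Annotation release and strand setting are not given in the sources used here. A deposited DESeq2 table of fold changes and p-values was not used.

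Genes passed edgeR's filterByExpr, libraries were scaled by TMM, and the quasi-likelihood F test was fitted with genotype as the only factor (edgeR 4.0.16, R 4.3.3). P-values were adjusted by Benjamini-Hochberg over all genes tested, at the study's threshold of 0.001. Standard errors are the log2 fold change over the square root of F, and intervals cover 95%. The steps were tested on simulated data.

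The 10 genes and the lists were chosen with earlier results of these data known. By rule, the text names the 10 genes, pathway-list genes past 0.001 or else the one of smallest p with at least 1 CPM, ID4, SMAD1, SMAD5, SMAD9, RPS6KB1 and the 3 nearest genes to the member of smallest p. Other genes, such as markers of cell types, CHRD and SKIL, were named after their values were seen. Positions and exons come from GENCODE 44 (GRCh38) by symbol, and promoter windows from RefSeq. The alternatives were DESeq2's size factors or Wald test (DESeq2 1.42.0), 2 other filters, a threshold of 0.05, a replicate block, each library left out and ID2 summed with ID2-AS1. Equal replicate numbers were not taken to pair the libraries in the main fit.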

Additional observations from a re-analysis of the deposited data

How the results depend on the processing

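ID2 kept its direction under every alternative. The number of the 10 genes higher in S6K1-/- hESCs at 0.001 was 1, and from 0 to 1 with a library left out, 0 with the replicate block and 2 at 0.05. Of the pathway genes, 3 were higher, and from 1 to 3 with a library left out and 5 at 0.05, while 3 were lower, 6 at 0.05 and 2 with at least 10 counts required in every library, where CER1 was not tested. Over all genes, 278 were higher and 496 were lower. Without a filter on low counts these were 591 and 982, at 0.05 1067 and 1622, and with a library left out from 175 to 235 and from 313 to 445. Libraries of the same replicate number had correlations of deviations of 0.018, 0.0017 and 0.032 over all genes tested. Whether they share a batch was not tested. The replicate block gave 241 higher and 423 lower genes. With the block the adjusted p of ID2 was 0.00114, and among the 29 genes followed the other calls it changed were that of ZNF429 at 0.001 (0.00117) and that of RGMB at 0.05 (0.0546). Some genes near 0 turned direction without ever passing the threshold. SMAD1 was 0.0053 with DESeq2's size factors and 0.0079 with its Wald test, and from -0.043 to 0.046 with a library left out, BMPR1A from -0.017 to 0.047, SMAD6 from -0.089 to 0.066, ID3 from -0.0091 to 0.11 and SMAD5 from -0.0053 to 0.080. The cause was not tested. Depth limits BMP2, ID4, CER1 and SMAD9, with at most 115 counts in a library.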
